A study of Mus musculus with 8 samples.

Results

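The genes described here, 10 in number, belong to the thromboxane and eicosanoid pathway and were followed in platelet RNA from mice labelled Dnmt3a+/- and their wild-type (WT) littermates. The genes were picked by symbol, and all 10 were found among the 55487 genes of the deposited tables: Pla2g4a, Ptgs1, Ptgs2, Tbxas1, Tbxa2r, Ptgir, Ptger3, Alox12, Alox5ap and Ltc4s. Platelets came from 4 male mice labelled Dnmt3a+/- and 4 male mice labelled WT, all aged 13 weeks, with 1 library per mouse. Dnmt3a encodes a DNA methyltransferase that sets new methyl marks on cytosines, and the construction of the mutant allele is not stated in the labels. Cardiac blood was the source, red cells and leukocytes were taken out with Ter119 and CD45 beads, and what remained of each mouse was sequenced on its own. The study's title places the work in how DNMT3A bears on blood stem cells that favour the megakaryocyte fate.

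Eicosanoids are signalling lipids made from arachidonic acid, which a phospholipase cuts out of membrane phospholipids. In platelets, cyclooxygenase and thromboxane synthase turn it into thromboxane A2, a short-lived lipid that activates neighbouring platelets through a G protein-coupled receptor, and low-dose aspirin works by blocking the platelet cyclooxygenase. A parallel branch uses 12-lipoxygenase to make 12-HETE, while leukotrienes are made by leukocytes through 5-lipoxygenase. Prostacyclin from the vessel wall acts on its own receptor to hold platelets back, and prostaglandin E2 acts through EP receptors.

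Platelet markers were present in all 8 libraries, and some libraries stood apart or went against their label. Total counts ran from 15620972 to 22160394 in the libraries labelled Dnmt3a+/- and from 15185218 to 17398666 in the WT libraries. The 13 platelet markers took 4.58% to 5.21% of counts in the libraries labelled Dnmt3a+/- and 4.23% to 5.05% in WT. Of the 14 neutrophil markers Camp and Elane were at 0 counts in every library, and the list took 2.4e-05% to 3.2e-05% of counts in the libraries labelled Dnmt3a+/- and 3.29e-05% to 0.000206% in WT. Of the 12 mast cell, basophil and eosinophil markers 6 were at 0 in every library, and the list took at most 0.000166% of counts in a library labelled Dnmt3a+/- and 0.000156% in a WT library. Monocyte and macrophage markers took 0.000469% to 0.00211% of counts in the libraries labelled Dnmt3a+/- and 0.000556% to 0.00197% in WT, with none of 14 at 0 throughout. The B, T and NK cell list took at most 0.000679% in a library labelled Dnmt3a+/- and 0.000712% in a WT library, with Cd3e at 0 throughout. Nkg7 had the most counts of that list, 53 to 106 in a library, and Ptprc had 4 to 27. Endothelial markers took 0.0395% to 0.0451% in the libraries labelled Dnmt3a+/- and 0.0376% to 0.0455% in WT. Most of this share was Esam, at 5429 to 7737 counts in a library, where the next, Plvap, had 215 to 477. Red cell markers stood apart in WT replicate 1, at 2.03%, where 0.203% to 0.486% was the range of the 7 remaining libraries, and Rhag was at 0 throughout. WT replicate 3 was highest in mitochondrially encoded RNA, at 24.8%, and every other library had 16.7% to 19.0%. Dnmt3a itself was at 9.96, 11.5, 24.2 and 19.5 CPM (counts per 1000000 after scaling by TMM factors) in the libraries labelled Dnmt3a+/- replicates 1 to 4, against 21.1, 22.1, 19.8 and 18.2 CPM in WT replicates 1 to 4. Its log2 fold change was -0.31 (SE 0.25, edgeR adjusted p = 0.998), and in TPM the means were 7.29 ± 3.73 in the libraries labelled Dnmt3a+/- and 7.01 ± 1.41 in WT (SD, n = 4 each). Replicates 3 and 4 with the mutant label lay within or above the WT range in CPM, so each difference that follows is between labels.

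The 10 genes spanned more than 4 orders of magnitude. Levels of different genes are set side by side in TPM (transcripts per 1000000, corrected for gene length). By mean TPM over the 8 libraries the order was Alox5ap, Alox12, Ptgs1, Tbxas1, Pla2g4a, Ptgir, Ptger3, Ptgs2, Ltc4s and Tbxa2r. Alox5ap averaged 3228 TPM and ranked 43rd of all 55487 genes, and Alox12 averaged 2048 TPM and ranked 69th. Ptgs1 ranked 353rd at 257 TPM and Tbxas1 406th at 208 TPM. Pla2g4a at 29.1 TPM and Ptgir at 23.3 TPM ranked 1269th and 1448th, and Ptger3 averaged 1.13 TPM. Ptgs2, Ltc4s and Tbxa2r averaged 0.0888, 0.0875 and 0.0850 TPM, the value of Tbxa2r with a doubt about its counting that is given with the gene. The members together took 0.540% to 0.641% of TPM in the libraries labelled Dnmt3a+/- and 0.476% to 0.678% in WT, and Alox5ap with Alox12 made up 90.9% to 91.2% of that sum under both labels. Neighbours in the order did not overlap over the 8 libraries except Ptgs1 with Tbxas1, Pla2g4a with Ptgir, and the last 3 genes among themselves. Ptgs1 was above Tbxas1 in 8 of 8 libraries and Pla2g4a above Ptgir in 7.

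**Figure D1:**
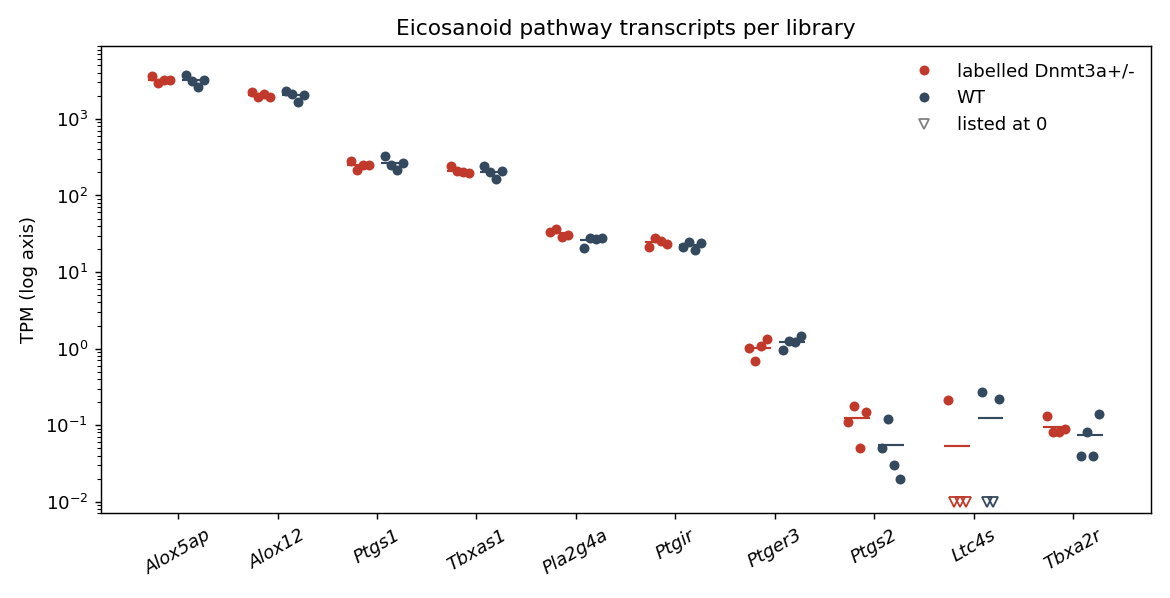
TPM of the 10 pathway genes on a log axis, 1 point per library, with libraries labelled Dnmt3a+/- in red on the left of each pair, WT in dark blue on the right, bars at the group means and triangles for libraries listed at 0. Alox5ap and Alox12 lie above 1000 TPM in every library, while Ptgs2, Ltc4s and Tbxa2r lie under 0.3 TPM in every library.

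The windows around the annotated starts of 4 members are shown because CG dinucleotides are what a DNA methyltransferase acts on, with Pla2g4a chosen for its unadjusted p, Ptgs1 and Ptgs2 as 2 forms of 1 enzyme at different levels, and Alox12 as the member with the most counts. Each runs from 250 bases before to 50 bases after the start, 5′ to 3′ on the gene's own strand, from RefSeq on GRCm38.p6, with each CG in capitals. They are Pla2g4a (chr1:149961241-149961540, minus strand), Ptgs1 (chr2:36230176-36230475, plus strand), Ptgs2 (chr1:150099781-150100080, plus strand) and Alox12 (chr11:70255321-70255620, minus strand).
Pla2g4a: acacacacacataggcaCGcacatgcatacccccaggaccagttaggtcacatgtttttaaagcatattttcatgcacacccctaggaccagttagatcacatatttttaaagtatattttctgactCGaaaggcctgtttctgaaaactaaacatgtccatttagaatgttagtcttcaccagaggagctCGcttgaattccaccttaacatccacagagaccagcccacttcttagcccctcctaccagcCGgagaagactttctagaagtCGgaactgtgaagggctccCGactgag
Ptgs1: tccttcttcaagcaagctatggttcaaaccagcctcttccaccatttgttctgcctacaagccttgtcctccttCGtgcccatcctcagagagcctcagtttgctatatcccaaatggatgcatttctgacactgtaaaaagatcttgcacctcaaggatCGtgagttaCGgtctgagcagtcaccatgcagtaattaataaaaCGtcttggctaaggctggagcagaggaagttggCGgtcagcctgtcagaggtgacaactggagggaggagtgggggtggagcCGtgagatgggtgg
Ptgs2: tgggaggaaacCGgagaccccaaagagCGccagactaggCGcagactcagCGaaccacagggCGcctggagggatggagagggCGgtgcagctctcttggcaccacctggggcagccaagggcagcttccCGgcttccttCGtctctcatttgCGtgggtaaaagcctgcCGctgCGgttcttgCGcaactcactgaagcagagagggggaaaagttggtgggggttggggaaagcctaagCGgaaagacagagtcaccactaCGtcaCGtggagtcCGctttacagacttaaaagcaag
Alox12: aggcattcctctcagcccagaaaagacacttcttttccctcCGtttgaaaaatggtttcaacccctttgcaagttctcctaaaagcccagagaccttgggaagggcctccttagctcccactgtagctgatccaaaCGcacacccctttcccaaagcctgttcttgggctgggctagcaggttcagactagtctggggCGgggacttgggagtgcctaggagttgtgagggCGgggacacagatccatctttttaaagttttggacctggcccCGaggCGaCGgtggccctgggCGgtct
The Pla2g4a and Ptgs1 windows hold 6 CG each, the Alox12 window 8 and the Ptgs2 window 16, against a median of 7 over the 32851 windows of that table. Among the other members with a window, Ptger3 had the most CG, at 27. Of all windows, 68.6% had no more CG than Ptgs2 and 85.8% no more than Ptger3. Methylation was not measured in these files. A search of both strands used spellings that the GATA factors of megakaryocytes are known to bind, AGATAA and, beside it, TGATAA, then AGATAG and, last, TGATAG, and found them in none of these 4 windows and in 29.8% of all windows. A second annotated start of Pla2g4a (chr1:149922390-149922689) held 2 of them. CAGGAAG and CCGGAAG, spellings bound by ETS factors, were found in 1 of 2 Tbxa2r windows, in no other member's window and in 20.9% of all windows.

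Of the 7 members with enough counts to test, none passed the adjusted threshold of 0.05 between the labels. The edgeR quasi-likelihood test called 0% of 7362 genes (0 genes), and 362 genes, or 4.92%, had an unadjusted p under 0.05, with 1.73% higher and 3.19% lower in the libraries labelled Dnmt3a+/-. Of the 7 tested members, 1 was among those 362, Pla2g4a, on the higher side. When 1 of the 8 libraries was left out, the fold changes of Ptgs1, Tbxas1, Alox12 and Alox5ap each changed sign for at least 1 library. DESeq2 called 9 genes of all those tested, none of them a member. Ptgs2, Tbxa2r and Ltc4s fell below the filter on low counts. Of the 7 log2 fold changes 4 were above 0 and 3 below, with a median of 0.0050, beside 49.0% above 0 and a median of -0.0050 over all genes tested. In these bulk libraries, fewer cells of a type and less RNA per cell cannot be told apart.

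**Figure D2:**
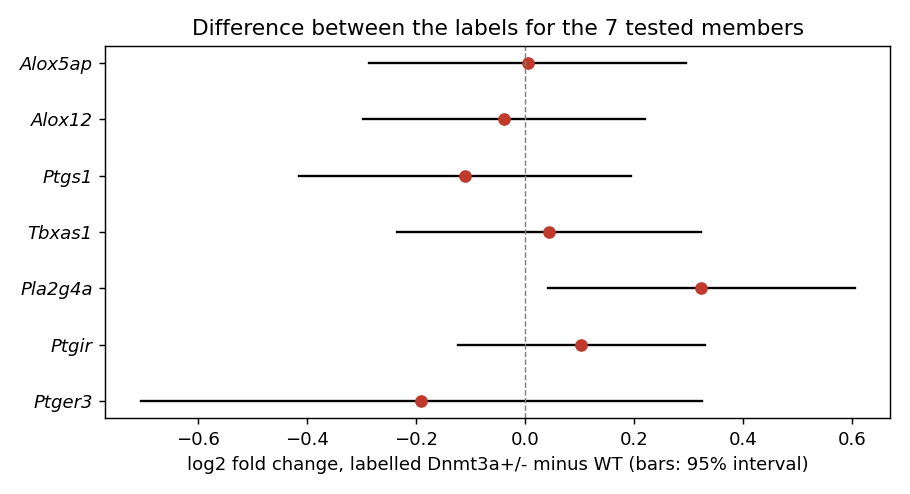
Log2 fold change (labelled Dnmt3a+/- minus WT) of the 7 tested members with its 95% interval, from the edgeR fit over 7362 genes. The interval of Pla2g4a, from 0.04 to 0.61, is the one that does not reach 0, and that of Ptger3, from -0.70 to 0.32, is the widest.

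Pla2g4a (chromosome 1, 149829618 to 149961290, minus strand; ENSMUSG00000056220) encodes cytosolic phospholipase A2 alpha, which frees arachidonic acid and so opens the pathway. It was at 80.2, 86.9, 61.3 and 72.2 CPM in the libraries labelled Dnmt3a+/- replicates 1 to 4, against 52.3, 57.4, 65.7 and 64.9 CPM in WT replicates 1 to 4. With the mutant label, 3 libraries lay above every WT library, and replicate 3 lay inside the WT range. The means were 75.2 ± 10.99 CPM in the libraries labelled Dnmt3a+/- and 60.1 ± 6.39 CPM in WT (SD, n = 4 each). Between the labels the log2 fold change was 0.32 (SE 0.13, 95% interval 0.04 to 0.61), a fold of 1.25 with an interval of 1.03 to 1.52. Its unadjusted p ranked 222nd of 7362, and the edgeR adjusted p was 0.936, so it did not pass. The unadjusted edgeR p, 0.028 with all 8 libraries, was not stable when 1 library was left out. It was 0.061 and 0.10 without the libraries labelled Dnmt3a+/- replicates 1 and 2. Without WT replicates 1 and 2 it was 0.072 and 0.069. Leaving out any other library gave 0.0075 to 0.044. In TPM the groups did not overlap, at 28.8 to 36.2 in the libraries labelled Dnmt3a+/- and 20.8 to 27.8 in WT, as in 1.82% of all genes tested, 0.924% with the libraries labelled Dnmt3a+/- higher. In CPM no member had groups apart, against 2.54% of all genes tested, 1.37% with the libraries labelled Dnmt3a+/- higher. Without the libraries labelled Dnmt3a+/- replicates 3 and 4, whose Dnmt3a was not under the WT range, the log2 fold change of Pla2g4a was 0.49 (SE 0.14, edgeR adjusted p = 0.849), which is over 1.5 times the value with all 8 libraries on that scale. The libraries kept under that label, at 80.2 and 86.9 CPM, were its highest for Pla2g4a. A larger value thus followed from which libraries were left out, and a tie to the Dnmt3a level was not tested. Without WT replicates 1 and 3, left out after the data were seen, it was 0.30 (SE 0.16, edgeR adjusted p = 0.9998).

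Ptgs1 (chromosome 2, 36230426 to 36252272, plus strand; ENSMUSG00000047250) encodes cyclooxygenase 1, the constitutive enzyme that turns arachidonic acid into prostaglandin H2. The libraries labelled Dnmt3a+/- replicates 1 to 4 held 698, 495, 591 and 572 CPM, and WT replicates 1 to 4 held 795, 550, 586 and 612 CPM. WT replicate 1 was the highest library and the one labelled Dnmt3a+/- replicate 2 the lowest, with the groups overlapping between them. On the log2 scale the fold change was -0.11 (SE 0.14, 95% interval -0.41 to 0.19, edgeR adjusted p = 0.998), and it changed sign without WT replicate 1, to 0.016.

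Ptgs2 (chromosome 1, 150100031 to 150108227, plus strand; ENSMUSG00000032487) encodes cyclooxygenase 2, the inducible form of the same enzyme. It had 7, 11, 3 and 13 counts in the libraries labelled Dnmt3a+/- replicates 1 to 4, against 3, 8, 2 and 1 counts in WT. The groups overlapped at these low counts. Summed over each label, Ptgs1 had 41491 counts beside 34 of Ptgs2 in the libraries labelled Dnmt3a+/-, and 41351 beside 14 in WT. In an edgeR fit with no filter on low counts, over 18462 genes, Ptgs2 had a log2 fold change of 1.17 (SE 0.69, edgeR adjusted p = 0.793).

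Tbxas1 (chromosome 6, 38875404 to 39084585, plus strand; ENSMUSG00000029925) encodes thromboxane A synthase, a cytochrome P450 that makes thromboxane A2 from prostaglandin H2. Its levels were 408, 331, 334 and 307 CPM in the libraries labelled Dnmt3a+/- replicates 1 to 4, against 409, 303, 301 and 325 CPM in WT replicates 1 to 4. Replicate 1 of each label stood above the other 6 libraries. Its log2 fold change was 0.045 (SE 0.13, 95% interval -0.23 to 0.32, edgeR adjusted p = 0.998). Exon bases of Tbxas1 lie inside the span of Hipk2 on the other strand, a gene at 710 to 1064 counts in the libraries labelled Dnmt3a+/- and 639 to 829 in WT. Overlap of exon with exon was not examined. The strand setting of the counting is not given, so reads of any shared bases cannot be assigned to one gene with certainty.

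Within a library, the TPM of Tbxas1 was 0.850, 0.962, 0.818 and 0.773 times that of Ptgs1 in the libraries labelled Dnmt3a+/- replicates 1 to 4, against 0.752, 0.805, 0.759 and 0.779 times in WT. The ratio was 0.851 ± 0.0804 in the libraries labelled Dnmt3a+/- and 0.774 ± 0.0240 in WT (SD, n = 4 each), and the groups overlapped. Such a ratio does not depend on how libraries are scaled. The ratio of Pla2g4a to Ptgs1 was 0.131 ± 0.0244 in the libraries labelled Dnmt3a+/- and 0.102 ± 0.0268 in WT (SD, n = 4 each), with the library labelled Dnmt3a+/- replicate 2 highest at 0.167 and WT replicate 1 lowest at 0.0637. The groups overlapped in this ratio too. The log2 difference of the Pla2g4a to Ptgs1 ratio was 0.39, and it was 0.19 without WT replicate 1 and 0.52 without WT replicate 3. That of the Tbxas1 to Ptgs1 ratio was 0.13, and 0.072 without the library labelled Dnmt3a+/- replicate 2.

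Tbxa2r (chromosome 10, 81328731 to 81335172, plus strand; ENSMUSG00000034881) encodes the thromboxane A2 receptor, through which thromboxane activates platelets. It had 3, 2, 2 and 3 counts in the libraries labelled Dnmt3a+/- replicates 1 to 4, against 1, 2, 1 and 3 counts in WT replicates 1 to 4. No library held more than 3 counts, and at such counts a difference between the labels was not detectable. Whether the annotation or read assignment behind the tables lowers the count of this gene could not be checked, so its level, its place in the order and its ratio to Ptgir are those of the tables only. The edgeR fit with no filter gave a log2 fold change of 0.40 with an SE of 1.01 (edgeR adjusted p = 0.961).

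Ptgir (chromosome 7, 16906490 to 16910905, plus strand; ENSMUSG00000043017) encodes the prostacyclin receptor, which raises cyclic AMP and restrains platelets. It was at 51.1, 63.7, 60.0 and 52.1 CPM in the libraries labelled Dnmt3a+/- replicates 1 to 4, against 51.1, 52.4, 53.3 and 54.3 CPM in WT. The WT libraries lay close together, and 2 of the libraries with the mutant label lay above them. Between the labels the log2 fold change was 0.10 (SE 0.10, 95% interval -0.12 to 0.33, edgeR adjusted p = 0.998). Its SD of log2 CPM over the 8 libraries, 0.12, was at the 6.29th percentile of all genes tested, the lowest of the 7 members. The TPM of Tbxa2r was 0.00288 to 0.00620 times that of Ptgir in the libraries labelled Dnmt3a+/- and 0.00188 to 0.00593 times in WT, a ratio that rests on 1 to 3 counts of Tbxa2r per library.

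Ptger3 (chromosome 3, 157566892 to 157645888, plus strand; ENSMUSG00000040016) encodes the EP3 receptor, by which prostaglandin E2 lowers cyclic AMP and can favour aggregation. It had 32, 26, 37 and 66 counts in the libraries labelled Dnmt3a+/- replicates 1 to 4, against 35, 40, 45 and 45 in WT. Scaled for depth these were 2.11, 1.61, 2.24 and 2.86 CPM in the libraries labelled Dnmt3a+/- against 2.23, 2.17, 2.82 and 2.93 CPM in WT, and the groups overlapped. On the log2 scale the fold change was -0.19 (SE 0.23, 95% interval -0.70 to 0.32, edgeR adjusted p = 0.998). It was -0.43 without the libraries labelled Dnmt3a+/- replicates 3 and 4 (edgeR adjusted p = 0.981). The libraries kept under that label, at 2.11 and 1.61 CPM, were its lowest for Ptger3.

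Alox12 (chromosome 11, 70241457 to 70255353, minus strand; ENSMUSG00000000320) encodes platelet-type 12-lipoxygenase, which turns arachidonic acid into the precursor of 12-HETE. It had the most counts of the 10 genes, 75759 to 104746 in the libraries labelled Dnmt3a+/- and 76948 to 95230 in WT. The levels were 5759, 4691, 5166 and 4546 CPM in the libraries labelled Dnmt3a+/- replicates 1 to 4, against 6066, 4781, 4828 and 5030 CPM in WT replicates 1 to 4. Replicate 1 of each label was again highest and the groups overlapped. Its log2 fold change was -0.038 (SE 0.12, 95% interval -0.30 to 0.22, edgeR adjusted p = 0.998). As a fold, that interval ran from 0.813 to 1.17. The TPM of Alox12 was 8.20 ± 0.571 times that of Ptgs1 in the libraries labelled Dnmt3a+/- and 7.82 ± 0.470 times in WT (SD, n = 4 each).

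Alox5ap (chromosome 5, 149264767 to 149288153, plus strand; ENSMUSG00000060063) encodes FLAP, a membrane protein that hands arachidonic acid to 5-lipoxygenase. It was at 1949, 1437, 1652 and 1520 CPM in the libraries labelled Dnmt3a+/- replicates 1 to 4, against 2003, 1450, 1515 and 1567 CPM in WT. Both ranges were nearly the same, with replicate 1 highest and replicate 2 lowest under each label. Between the labels the log2 fold change was 0.0050 (SE 0.13, 95% interval -0.29 to 0.30, edgeR adjusted p = 0.999). As a fold, that interval ran from 0.820 to 1.23. Alox12 exceeded Alox5ap in CPM and fell under it in TPM. In GENCODE M21 the exons of Alox12 cover 4085 bases and those of Alox5ap 1420 bases. The lengths used for the deposited TPM are not given and need not be these. The order of the 2 genes thus rests on the deposited TPM, and whether these exon lengths account for the reversal was not tested.

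Ltc4s (chromosome 11, 50236461 to 50238616, minus strand; ENSMUSG00000020377) encodes leukotriene C4 synthase, the enzyme that joins leukotriene A4 to glutathione. It had 1, 0, 0 and 0 counts in the libraries labelled Dnmt3a+/- replicates 1 to 4, against 2, 0, 0 and 1 in WT. A library at 0 allows up to 3 counts, for counting error only, and no fold is given at this level. Gm26542, an antisense RNA whose span covers exon bases of Ltc4s, had 29 to 43 counts in the libraries labelled Dnmt3a+/- and 38 to 56 in WT. Alox5, the gene of 5-lipoxygenase, had 0 to 8 counts in the libraries labelled Dnmt3a+/- and 1 to 9 in WT, while Alox5ap had 23212 to 35018 counts in the libraries labelled Dnmt3a+/- and 24029 to 31450 in WT. Mgst2, which can also make leukotriene C4, had 3 to 9 counts in the libraries labelled Dnmt3a+/- and 1 to 5 in WT.

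The 4 most abundant members shared their highest libraries, which came from both labels. In Alox5ap, Alox12, Ptgs1 and Tbxas1 the 2 highest libraries in CPM were the one labelled Dnmt3a+/- replicate 1 and WT replicate 1. These were the 2 highest libraries in 13.6% of all genes tested (1000 of 7362) and in 4 of the 7 tested members. Their deviations from the gene's mean over the 8 libraries were 0.18 to 0.275 on the log2 scale in the library labelled Dnmt3a+/- replicate 1 and 0.25 to 0.39 in WT replicate 1. The summed platelet markers were also highest in these libraries, at 5.21% of counts in the one labelled Dnmt3a+/- and 5.05% in the WT one, and WT replicate 1 held the 2.03% of red cell markers. Their part in the pattern was not tested. Pla2g4a ran differently, at 0.26 in the library labelled Dnmt3a+/- replicate 1 and -0.35 in WT replicate 1. The SD of log2 CPM over the 8 libraries was 0.15 to 0.21 for the 4 abundant members, 0.24 for Pla2g4a and 0.28 for Ptger3, beside a median of 0.30 over all genes tested.

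**Figure D3:**
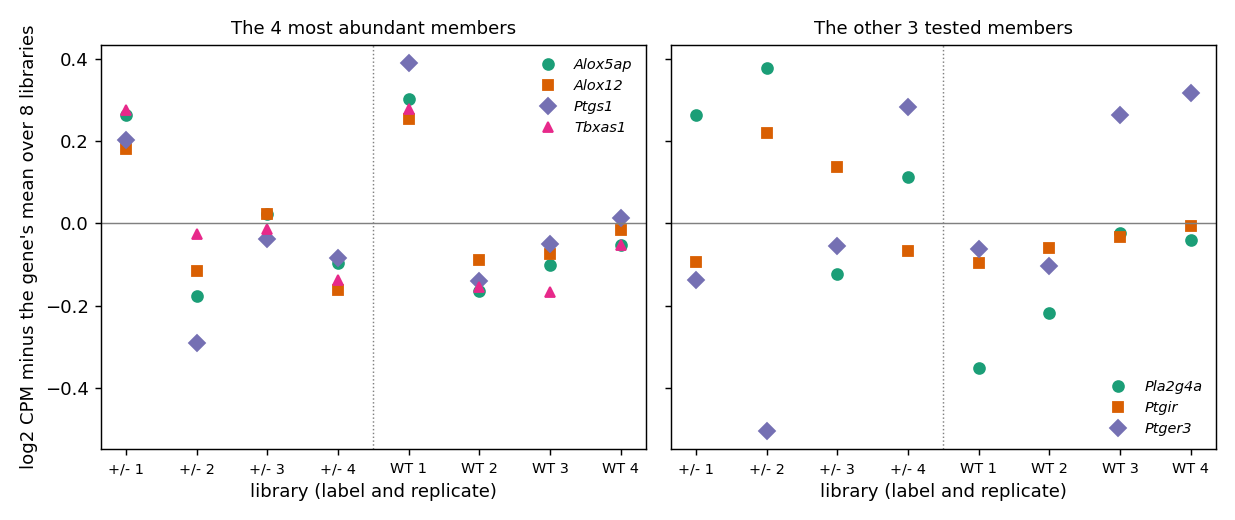
Deviation of log2 CPM from the gene's mean over the 8 libraries, by library, with the libraries labelled Dnmt3a+/- left of the dotted line and WT right of it. The 4 abundant members on the left peak together in replicate 1 of each label, and Pla2g4a on the right is lowest in WT replicate 1, at -0.35.

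Genes were ranked by how closely their centred log2 CPM followed that of each tested member, as the mean absolute difference over the 8 libraries among 2742 genes of at least 10 CPM. Closest to Tbxas1 were Ilk, integrin-linked kinase, at 0.028, and Sh2b3, an adaptor that restrains thrombopoietin signalling, at 0.041. Alox12 was followed most closely by Ap2m1 (0.028), a subunit of the clathrin adaptor AP-2, and Pttg1ip (0.030). Nearest to Ptgs1 were Hpse, heparanase, and Mpig6b, an inhibitory receptor of megakaryocytes and platelets, at 0.035 each. Alox5ap was nearest to Glb1 (0.029) and Glipr2 (0.032), and Ptgir to Bid (0.038) and Trpm7 (0.040). For Pla2g4a the nearest were Cpeb4 (0.069) and Mga (0.072), at larger distances. For Ptger3 they were Gm4316 and Angel2, at 0.075 and 0.11. Each list holds the best matches out of many genes and is given as a description.

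Other genes of the pathway, from lists written with earlier results of these data known, were also without a call by edgeR at the adjusted threshold. Of 31 listed genes that release or re-esterify arachidonic acid, 9 were tested, 4 above 0 and 5 below (median log2 fold change -0.013). The sign of this median was not stable, at -0.076 without WT replicate 3 and 0.030 without the library labelled Dnmt3a+/- replicate 4. With no filter on low counts, over 24 genes, it was -0.14. The most abundant was Pnpla8, a calcium-independent phospholipase, at 536 ± 98.5 TPM in the libraries labelled Dnmt3a+/- and 425 ± 67.7 TPM in WT (log2 fold change 0.29, SE 0.14, edgeR adjusted p = 0.987). Pla2g12a, a secreted phospholipase, averaged 190.5 TPM, Mboat7, which puts arachidonate back into phosphatidylinositol, 87.1 TPM, and Abhd12, a lysophospholipid hydrolase, 25.3 TPM. Abhd12 was at 29.7 ± 2.13 CPM in the libraries labelled Dnmt3a+/- and 33.6 ± 2.46 CPM in WT (SD, n = 4 each), and these groups did not overlap, as in 2.54% of all genes tested (log2 fold change of -0.18 with an SE of 0.11, edgeR adjusted p = 0.998). Pnpla8 and Pla2g12a thus both exceeded Pla2g4a, at 29.1 TPM, in level.

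Of 21 other genes of prostanoid synthesis and transport in the tables, 8 were tested, 3 above 0 and 5 below (median -0.050). This median had no stable sign. It was 0.085 without WT replicate 1, over the 9 genes then past the filter, and 0.022 without WT replicate 2. With limma on log2(TPM + 1) and log2(TPM + 0.1) it was 0.033 and 0.035. Abcc4, a transporter that platelets keep in dense granules and that can export prostaglandins, led at 12.9 TPM, followed by Ptgr2 at 7.87, Abcc1 at 5.92 and Hpgd, which breaks down prostaglandins, at 2.53. Ptgis, the prostacyclin synthase of vessel walls, had 0 to 3 counts in the libraries labelled Dnmt3a+/- and 1 to 3 in WT. Hpgds, the blood-cell synthase of prostaglandin D2, had 1 to 8 counts in the libraries labelled Dnmt3a+/- and 1 to 6 in WT.

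Among 14 other eicosanoid receptors in the tables, 3 were tested and all 3 lay above 0 (median 0.21). Leaving out 1 library moved this median between 0.035, without WT replicate 4, and 0.29, without WT replicate 1, and the strict filter of 10 CPM left 1 gene, at 0.017. Cysltr2, a receptor for cysteinyl leukotrienes, stood out in level, at 134 ± 6.85 TPM in the libraries labelled Dnmt3a+/- and 125 ± 9.43 TPM in WT (SD, n = 4 each). Its log2 fold change was 0.041 (SE 0.089, 95% interval -0.15 to 0.24, edgeR adjusted p = 0.998). By mean TPM, 129 for Cysltr2 and 23.3 for Ptgir, it exceeded Ptgir, the receptor with the highest listed level among the members. Ltb4r1, a leukotriene B4 receptor, averaged 1.19 TPM, Ltb4r2 0.386 TPM and Ptgfr, with at most 2 counts in a library, 0.148 TPM. Cysltr1 had 1 to 3 counts in the libraries labelled Dnmt3a+/- and 0 to 2 in WT, Ptger4 had 3 to 10 in the libraries labelled Dnmt3a+/- and 5 to 10 in WT, and the prostaglandin D2 receptor genes Ptgdr and Ptgdr2 had 0 in all 8.

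Of 21 other genes of lipoxygenase and leukotriene metabolism, 5 were tested, 1 above 0 and 4 below (median -0.14). The median ran from -0.46, without the library labelled Dnmt3a+/- replicate 3, to -0.0051, without WT replicate 1, and was -0.66 without the libraries labelled Dnmt3a+/- replicates 3 and 4. The filter on low counts was rerun in each fit, so -0.46 and -0.0051 cover 7 genes and -0.66 covers 8, not the same 5. Gpx4 and Gpx1, peroxidases that reduce lipid hydroperoxides, averaged 2347 and 226 TPM, with log2 fold changes of -0.10 (SE 0.18) and -0.14 (SE 0.22). Mgst1, a microsomal glutathione transferase abundant in liver, was at 1.25, 0.495, 0.849 and 0.868 CPM in the libraries labelled Dnmt3a+/- replicates 1 to 4, against 1.21, 4.6, 18.8 and 11.9 CPM in WT replicates 1 to 4. WT replicate 1 lay with the mutant label and the other 3 WT libraries above it. On the log2 scale the fold change was -3.39 (SE 0.70, edgeR adjusted p = 0.647), with an adjusted p of 0.0212 by DESeq2. The 12 hepatocyte markers took 0.0089%, 0.00029%, 0.0128% and 0.000329% of counts in the libraries labelled Dnmt3a+/- replicates 1 to 4 and 0.00166%, 0.0333%, 0.129% and 0.112% in WT, and their part in the Mgst1 values was not tested. Without WT replicate 1 Mgst1 passed (-3.75, edgeR adjusted p = 0.00795), as did Ephx1 (-2.47, edgeR adjusted p = 0.0156) and, from the prostanoid list, the transporter Slco2b1 (-3.32, edgeR adjusted p = 0.0286). Ephx1 and Slco2b1 fell below the filter on low counts with all 8 libraries and entered when it was rerun without that library. Over all 8, Ephx1 averaged 0.400 CPM in the libraries labelled Dnmt3a+/- and 1.78 in WT, and Slco2b1 0.101 and 0.809. Both entered through the WT libraries, where they were higher, so the filter favoured the direction of these calls and they are no support for it. In the fit without WT replicate 1, 135 of 7718 genes passed, 134 of them lower in the libraries labelled Dnmt3a+/-. Alox15, a lipoxygenase of other blood cells, had 0 to 13 counts in the libraries labelled Dnmt3a+/- and 2 to 6 in WT.

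The G proteins, effectors and kinases next to these receptors and to cytosolic phospholipase A2 made the list with the most tested genes. Of 26 genes 21 were tested, 14 above 0 and 7 below (median 0.066). Gnas, whose G protein carries the prostacyclin signal, was the most abundant at 2995 ± 278 TPM in the libraries labelled Dnmt3a+/- and 3047 ± 579 TPM in WT (log2 fold change -0.016, SE 0.16, edgeR adjusted p = 0.9985). Gnai2 averaged 461 TPM, the protein kinase A subunit Prkar2b 452 TPM and the kinase Mapk3 208 TPM. No member of this group had an unadjusted p under 0.05, and each was at or under 0.29 in size on the log2 scale.

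**Figure D4:**
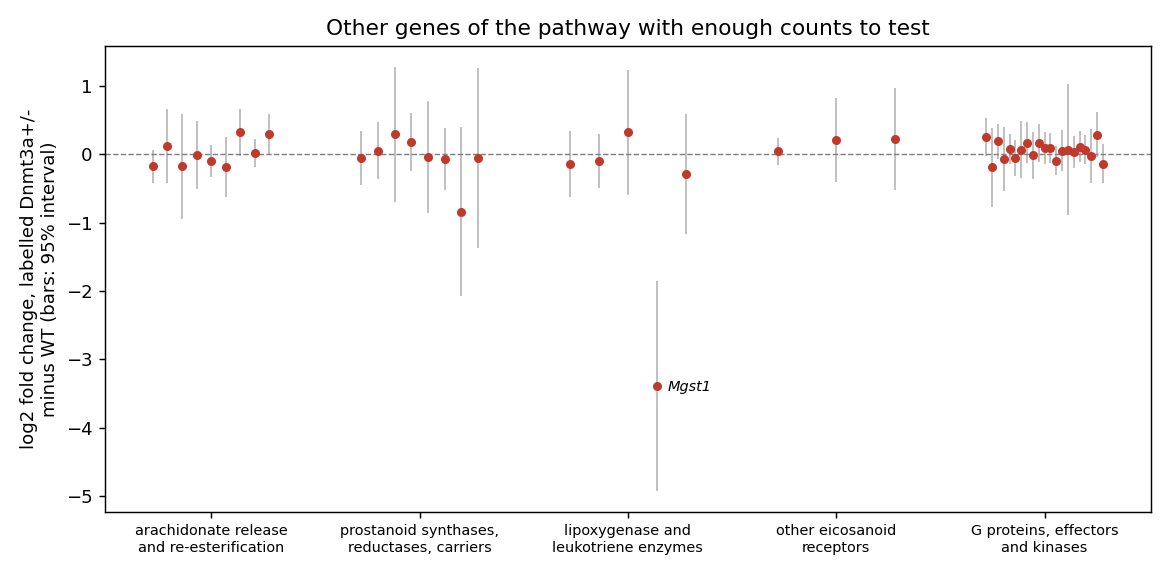
Log2 fold change (labelled Dnmt3a+/- minus WT) with its 95% interval for the tested genes of 5 further pathway lists, 1 point per gene. Mgst1, at -3.39, is the one gene with an unadjusted p under 0.05, and the others lie between -0.84 and 0.32.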

How the data were processed

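RNA sequencing of platelets from 8 mice gave 1 library per mouse, made with a stranded kit for polyadenylated RNA, per the labels' protocols. The authors deposited an estimated count per gene, written as whole numbers, and a TPM per gene, corrected for gene length. Tools named in the submitters' processing notes are cutadapt, STAR, RSEM and DESeq2, with the build mm10 and no role or version, and neither the annotation nor the strand setting is stated. The counts are already whole, so rounding left them as deposited. The main test was edgeR 4.0.16 under R 4.3.3 (TMM, filterByExpr with a minimum count of 10 and total of 15, glmQLFit, glmQLFTest, label as the term), with Benjamini-Hochberg adjustment over 7362 genes at 0.05. The SE is the fold change over the root of its F statistic. CPM use TMM-scaled totals. Every pair of libraries differed by more than sampling noise, with a chi-square over its degrees of freedom of at least 12.3. Coordinates are from GENCODE M21 (GRCm38, also called mm10), which holds 55141 of 55487 identifiers, and promoter windows from RefSeq. The edgeR fit was tested on simulated counts. Alternatives used limma 3.58.1 and DESeq2 1.42.0. Members and lists were chosen with earlier results of these data known. By rule, the text names all members, the 4 most abundant genes of each other list, those with an unadjusted p under 0.05, a fixed set given as levels, and the 2 nearest genes of each member; others were named after their values were seen. Pla2g16, Ptgr3 and Oxer1 did not match a symbol.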

Additional observations from a re-analysis of the deposited data

Results flagged for a closer look

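Among 28 groups of 4 libraries, 3 had 1 library far from the other 3, where chance flags about 1 in 20 if values are continuous and normally spread. The library labelled Dnmt3a+/- replicate 1 held Tbxa2r at 0.198 CPM, above the other 3 of its label, from 3 counts. The same library held Ltc4s at 0.0660 CPM, from 1 count, where the other 3 of its label had 0. In the ratio of Pla2g4a to Ptgs1 TPM the library labelled Dnmt3a+/- replicate 2 stood apart, at 0.167, with Pla2g4a highest and Ptgs1 lowest of its label. The first 2 rest on 1 to 3 counts, where the rate of 1 in 20 does not hold, so the number flagged cannot be set against it.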

How the results depend on the processing

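No tested member passed the adjusted threshold under any alternative run, and the adjusted p of Pla2g4a ran from 0.606 (edgeR without a filter) to 0.9998 (edgeR without WT replicates 1 and 3). Pla2g4a and Ptgir stayed above 0 in 19 of 19 alternatives (0.24 to 0.49 and 0.035 to 0.16) and Ptger3 below 0 in 18 of 18 (-0.43 to -0.076). The 4 abundant members changed sign near 0: Alox5ap was -0.016 under the strict filter of 10 CPM, Alox12 was 0.0023 with limma on log2(TPM + 1) or log2(TPM + 0.1), 0.026 without the libraries labelled Dnmt3a+/- replicates 3 and 4 and 0.044 without WT replicates 1 and 3, and Ptgs1 was 0.026 in the last; the cause was not tested. Leaving out 1 library at a time gave -0.079 to 0.12 for Alox5ap, -0.0996 to 0.046 for Alox12, -0.19 to 0.016 for Ptgs1 and -0.037 to 0.16 for Tbxas1. The sign changed without the libraries labelled Dnmt3a+/- replicate 1 (Tbxas1, Alox5ap) and 4 (Alox12), and without WT replicates 1 (Ptgs1, Alox12), 2 (Alox5ap), 3 (Tbxas1, Alox5ap) and 4 (Alox5ap).

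The count of all genes called was 0 with edgeR, 250 without a filter on low counts (4 higher, 246 lower), 9 with DESeq2, 1 with the robust fit, 1 without the libraries labelled Dnmt3a+/- replicates 3 and 4, 3 without WT replicates 1 and 3, and 0 to 135 leaving out 1 library, with the 135 without WT replicate 1. In the lipoxygenase and leukotriene list it was 3 of 16 genes with no filter, Mgst1, Ephx1 and Cyp4f14, and 1 of 5 with DESeq2. It was 1 of 7 without WT replicates 1 and 3, and 0 to 2 leaving out 1 library. In the prostanoid list it was 1 of 20 genes with no filter, Slco2b1, and 0 to 1 leaving out 1 library. Those fits tested 18462 genes in all with no filter, 7362 with DESeq2 and 8051 without WT replicates 1 and 3. Cyp4f14, Ephx1 and Slco2b1 were below the filter with all 8 libraries. Cyp4f14 averaged 0.032 CPM in the libraries labelled Dnmt3a+/- and 0.92 in WT. By CPM in place of TPM, Alox12 came 1st, Alox5ap 2nd, Tbxa2r 9th and Ltc4s 10th of the members.

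Both labels carry replicate numbers 1 to 4, and libraries of the same number correlated in their deviations at -0.037, 0.081, 0.158 and -0.168, so the numbers were not taken as pairs, and no library labelled Dnmt3a+/- correlated best with the WT library of its own number. With the replicate number as a block, 0 genes passed and Pla2g4a was at 0.32 (SE 0.13, edgeR adjusted p = 0.721). The block left the SE of Pla2g4a at 0.13 and lowered those of the 4 abundant members. The SE went from 0.14 to 0.075 for Ptgs1 and from 0.13 to 0.077 for Tbxas1 and Alox5ap. For Alox12 it went from 0.12 to 0.086. Leaving out 1 library at a time, the log2 difference of the ratios to Ptgs1 ran from 0.19 to 0.52 for Pla2g4a, 0.072 to 0.18 for Tbxas1 and 0.027 to 0.10 for Alox12, and that of Tbxa2r to Ptgir from 0.15 to 0.72. No ratio of Alox5ap to Ltc4s was computed by group, since Ltc4s was at 0 in 5 libraries. Ptgs2, Tbxa2r and Ltc4s, at 13 counts or fewer in a library, are limited by depth. The p-values set the difference between the labels against the spread among mice of the same label, 4 under each.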
